A study of Mus musculus with 12 samples.

Results

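Fatty acid oxidation was followed here through 34 genes picked by name, which encode the carriers and enzymes that bring fatty acids into mitochondria and break them down there or in peroxisomes. All 34 were found, by Ensembl identifier, among the 15754 genes of the count table. They were ordered by their place in the pathway: 6 genes of carnitine entry and its control by malonyl-CoA, 8 acyl-CoA dehydrogenases, 9 genes of the rest of the mitochondrial spiral, 3 genes of electron transfer and 8 genes of the peroxisomal steps.

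The study sequenced the RNA of primary mouse white adipocytes in 12 libraries: 4 from cells given a let-7d-5p mimic, 4 from cells given a let-7e-5p mimic and 4 from cells given a negative control RNA. A microRNA mimic is a short synthetic RNA that adds the activity of one mature microRNA to the cell. In every group, controls included, the cells came from epididymal fat of wild-type male C57BL/6 mice aged 8 weeks on chow, and were turned into adipocytes in culture with rosiglitazone (1 µM), insulin (850 nM), dexamethasone (1 µM) and IBMX (250 µM). Transfection was on day 4 and harvest on day 7 after induction. All groups therefore carried rosiglitazone, an agonist of the nuclear receptor PPARγ, and the labels name no separate animal or culture for any library, so that the p-values rest on a spread between libraries that could be technical alone. The sample identifiers form 2 series, here named ID run 1 for replicates 1 and 2 and ID run 2 for replicates 3 and 4, each with 2 libraries per group. No label gives the difference between these series.

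Long-chain fatty acids cross the inner mitochondrial membrane as carnitine esters, made by Cpt1, carried by Slc25a20 and turned back into acyl-CoA by Cpt2, and malonyl-CoA, the building block of fatty acid synthesis, holds Cpt1 back. Inside, repeated rounds of dehydrogenation, hydration, a further dehydrogenation and thiolysis shorten the chain, and the electrons of the acyl-CoA dehydrogenases pass through the electron transfer flavoprotein to ubiquinone. Peroxisomes shorten very long, branched and dicarboxylic chains with their own enzymes. White adipocytes mainly store fat and oxidise less of it than brown adipocytes do.

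The let-7 family of microRNAs lowers the messages that carry matches to its seed, bases 2 to 8 counted from the 5′ end, in their 3′ untranslated region (UTR). The mature sequences of both mimics' microRNAs, from RefSeq (GRCm38.p6), are shown because the members are read against their shared seed, which is in capitals.
let-7d-5p: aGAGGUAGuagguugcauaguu
let-7e-5p: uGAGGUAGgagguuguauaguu
Both are 22 bases long and differ at 3 positions outside the seed, A1U, U9G and C16U, with the let-7d base given first. They are encoded at chr13:48536078-48536099 on the minus strand and chr17:17830366-17830387 on the plus strand. The longest annotated 3′ UTR of each gene's coding transcripts (GENCODE vM21) was searched on the transcript strand for the 8-base match CTACCTCA and the 7-base matches CTACCTC and TACCTCA, and a 7-base match inside an 8-base one was not counted again. Of the 34 genes, 5 (14.7%) held a match, against 2301 of 13547 genes with an annotated 3′ UTR (17.0%). The searched UTRs had a median length of 564.5 bases in the 34 and 1187 bases in all, and the shares were not adjusted for length. The 8-base match occurred in 2 of the 34, Ehhadh among them, and in 508 genes (3.75%) of all. The 5 sites of Ehhadh, Hadha, Decr1 and Acadsb, 4 of the genes with a match, are given with 11 bases on either side in the direction of the transcript, with the match in capitals.
Ehhadh, chr16:21761909-21761916, minus strand: tctgtatcttcCTACCTCAtaattctaatg
Hadha, chr5:30119042-30119048, minus strand: ctcagtttgtcCTACCTCtgtccctcggt
Decr1, chr4:15917553-15917559, minus strand: gcagtttttatTACCTCAtgaatagatct
Acadsb, chr7:131446390-131446396, plus strand: aactttcctttTACCTCAtccttagtcat
Acadsb, chr7:131446720-131446726, plus strand: ccattcaatgaCTACCTCtgtgtcagatt
The sites of Ehhadh, Hadha and Decr1 each lie in the only annotated coding transcript of the gene, and both Acadsb sites lie in 1 of its 3. A match of letters describes the annotation and does not show binding.

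The libraries held 15071299 to 33396316 counts. The first principal component, which parted the ID runs, held 81.9% of the variance, so every mimic value below is set against the controls of the same ID run or comes from a fit with a term for the ID run. Levels are in CPM, the TMM-scaled read count relative to library size, fold changes are log2 values with their standard error (SE), and a gene was called at a Benjamini-Hochberg adjusted p under 0.05 over all 15754 genes in edgeR's quasi-likelihood test, two-sided. A change within an ID run comes from a fit of all 12 libraries with every group and run apart, and a change in a run alone from a fit of that run's libraries only. The 10 measured markers of adipocyte identity, of which Lpl rose with each mimic and the other 9 were not called, summed to 5350 to 7620 CPM in ID run 2 and 22200 to 24300 CPM in ID run 1. Lep and 4 of the 5 lymphocyte markers were not analysed here.

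Fatty acid oxidation genes were more often lower than higher with either mimic. With let-7d, 11 of the 34 fell and 2 rose (edgeR), where 9.81% of all genes fell and 6.41% rose. The median log2 fold change was -0.11 over the 34, against -0.0022 over all genes, and 29 of the 34 values were negative. With let-7e, 10 fell and 0 rose, where 5.69% of all genes fell and 3.81% rose, and the median was -0.12 against -0.0019. At an unadjusted p under 0.05 there were 16 members with each mimic, and DESeq2 and limma-voom also called 0 members higher with let-7e. Both comparisons use the same control libraries, so each mimic's own values are given and their likeness is not counted as a result. In bulk RNA, fewer cells of a kind and less RNA per cell cannot be told apart. Leaving out 1 library took the let-7d count to 8 without control replicate 2, control replicate 3 or let-7d replicate 2. It took the let-7e count to 4 without control replicate 2, and to 5, 3, 6 and 6 without let-7e replicates 1, 2, 3 and 4.

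**Figure D1:**
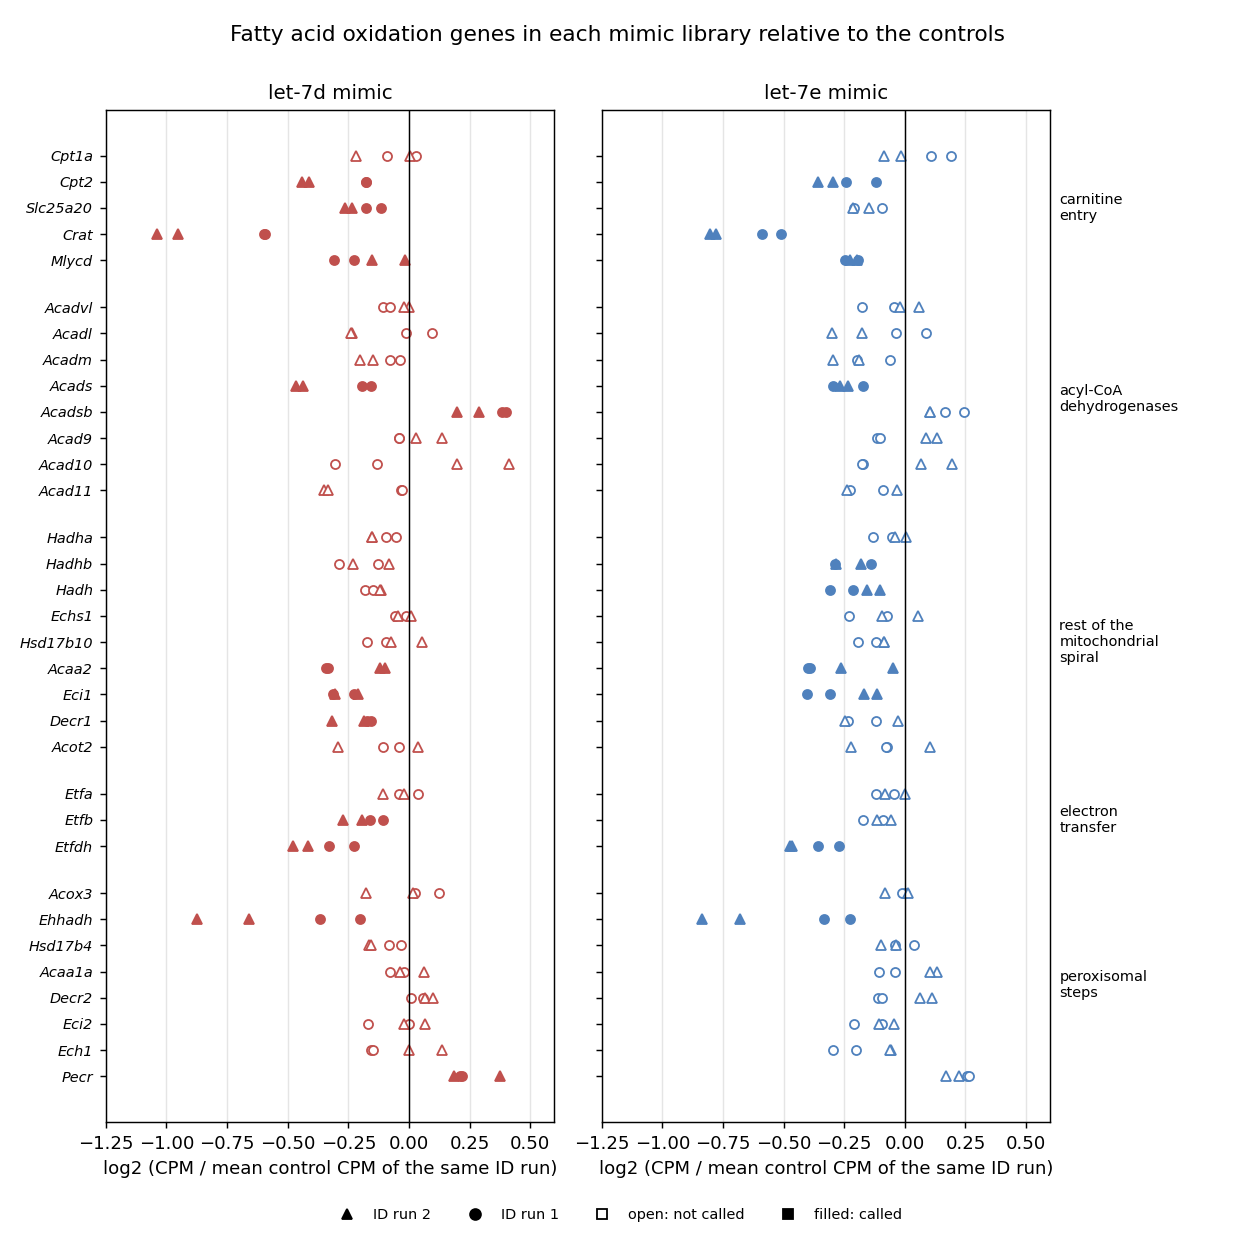
Each point is 1 mimic library, let-7d on the left and let-7e on the right, placed at its log2 ratio to the mean control CPM of the same ID run. Filled marks are called genes and triangles are ID run 2. Cpt1b, with 0.16 to 0.53 CPM in ID run 2, is left out. Crat, Ehhadh and Etfdh lie farthest to the left with both mimics, and Acadsb and Pecr to the right of 0 in every library.

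All let-7d libraries lay below all control libraries of their own ID run, in both runs, for 13 of the 34 genes (38.2%), where 13.4% of all genes did. For let-7e this held for 10 of the 34 (29.4%), where 10.4% of all genes did. Acadsb and Pecr were the members whose mimic libraries lay above the controls in both runs, with each mimic (5.88%, where 10.4% of all genes did with let-7d and 8.7% with let-7e).

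Of the 6 genes of carnitine entry, 4 fell with let-7d (median -0.24) and 3 with let-7e (median -0.19). Crat (chr2:30400471-30415813), the carnitine acetyltransferase that trades acetyl-CoA for acetylcarnitine and so buffers the acetyl-CoA that oxidation makes, moved most of all 34. It had, in ID run 2, 27.7 and 29.3 CPM with let-7d, 32.5 and 33.1 CPM with let-7e, and 58.2 and 55.4 CPM in the controls. In ID run 1 the let-7d libraries had 274 CPM each, the let-7e libraries 291 and 275 CPM, and the controls 389 and 438 CPM. Every mimic library was below every control of its run. Crat fell by 0.78 ± 0.071 (SE) with let-7d (41.7%, edgeR adjusted p = 7.16e-06) and by 0.67 ± 0.070 with let-7e (adjusted p = 3.52e-05). Within ID run 2 the changes were -1.0 and -0.79 with let-7d and let-7e, and within ID run 1 they were -0.59 and -0.55, and Crat was called in each of these 4 within-run tests. Its exons share 470 bases with other genes, among them Dolpp1, which stood at -0.070 ± 0.089 with let-7d and -0.074 ± 0.088 with let-7e.

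Cpt2 (chr4:107903981-107923610), which re-forms acyl-CoA inside the mitochondrion, had 37.1 and 37.9 CPM with let-7d, 41.0 and 39.4 CPM with let-7e, and 52.0 and 48.8 CPM in the controls of ID run 2. ID run 1 gave Cpt2 at 197 and 196 CPM with let-7d, 205 and 188 CPM with let-7e, and 207 and 238 CPM in the controls. No mimic library reached a control of its run. Cpt2 fell by 0.29 ± 0.061 with let-7d (adjusted p = 0.00383) and by 0.25 ± 0.060 with let-7e (adjusted p = 0.0167, edgeR). Without let-7e replicate 2 or 4 the let-7e call was lost (-0.21 to -0.31 over the 12 fits that leave out 1 library). In ID run 1 alone Cpt2 stood at -0.17 with each mimic, not called (adjusted p = 0.154 with let-7d and 0.178 with let-7e). In ID run 2 alone the let-7e value was -0.325, also not called (adjusted p = 0.0706, edgeR). Slc25a20, the translocase that moves acylcarnitines across the inner membrane, had 65.6 and 66.8 CPM with let-7d, 71.0 and 67.9 CPM with let-7e, and 83.1 and 74.3 CPM in the controls of ID run 2. In ID run 1 the let-7d libraries had 165 and 172 CPM, the let-7e libraries 175 and 161 CPM and the controls 182 and 191 CPM. Here too the groups did not overlap within a run. Slc25a20 fell by 0.20 ± 0.051 with let-7d (adjusted p = 0.0151) and stood at -0.16 ± 0.050 with let-7e (adjusted p = 0.0511, edgeR), a value that DESeq2 and limma-voom called. With let-7d, ID run 1 alone (-0.135) and ID run 2 alone (-0.23) did not call it (edgeR adjusted p = 0.177 and 0.106).

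Mlycd, the decarboxylase that removes malonyl-CoA and so frees Cpt1, had 15.4 and 16.9 CPM with let-7d, 14.6 and 14.9 CPM with let-7e, and 17.5 and 16.7 CPM in the controls of ID run 2. Its levels in ID run 1 were 55.8 and 59.0 CPM with let-7d, 60.5 and 58.2 CPM with let-7e, and 65.1 and 73.2 CPM in the controls. Only in ID run 2 did 1 let-7d library, at 16.9 CPM, overlap the controls. Mlycd fell by 0.18 ± 0.060 with let-7d (adjusted p = 0.0483) and by 0.21 ± 0.060 with let-7e (adjusted p = 0.0342, edgeR). The let-7d call held without control replicate 4 or let-7d replicate 4 and was lost without any of the other 10 libraries (-0.13 to -0.23 over the 12 fits). The let-7e call was lost without control replicate 2 or 3 or any of the let-7e libraries (-0.16 to -0.24). In ID run 2 alone Mlycd stood at -0.064 with let-7d (adjusted p = 0.765). With let-7e it was called in neither run alone (-0.20 in ID run 1 and -0.21 in ID run 2, edgeR). Blocking on replicate number also ended the let-7d call (adjusted p = 0.0532).

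Both Cpt1 genes, whose enzymes make the carnitine esters and set the rate of entry, passed no test against control. Cpt1a, the form of liver and many other tissues, had 91.8 and 107 CPM with let-7d, 101 and 106 CPM with let-7e, and 101 and 112 CPM in the controls of ID run 2. Cpt1a in ID run 1 had 127 and 138 CPM with let-7d, 145 and 154 CPM with let-7e, and 134 and 136 CPM in the controls. The let-7d libraries overlapped the controls in both runs, and the let-7e libraries lay above the controls in ID run 1 and overlapped them in ID run 2. Cpt1a stood at -0.067 with let-7d (95% interval -0.20 to 0.063) and at 0.050 with let-7e (-0.079 to 0.18). Cpt1b, the muscle form, which brown fat also uses, had 0.189 and 0.16 CPM with let-7d, 0.179 and 0.464 CPM with let-7e, and 0.338 and 0.532 CPM in the controls of ID run 2, with as few as 4 counts. ID run 1 gave Cpt1b at 9.09 and 8.08 CPM with let-7d, 9.41 and 9.38 CPM with let-7e, and 8.63 and 11.7 CPM in the controls. In ID run 2 both let-7d libraries were below the controls, and in ID run 1 they and the let-7e libraries were within or just under the spread of the controls. Cpt1b stood at -0.35 with let-7d (95% interval -0.75 to 0.056) and at -0.15 with let-7e (-0.54 to 0.24). Of its exons, 2744 bases are shared with the read-through gene Gm44502.

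**Figure D2:**
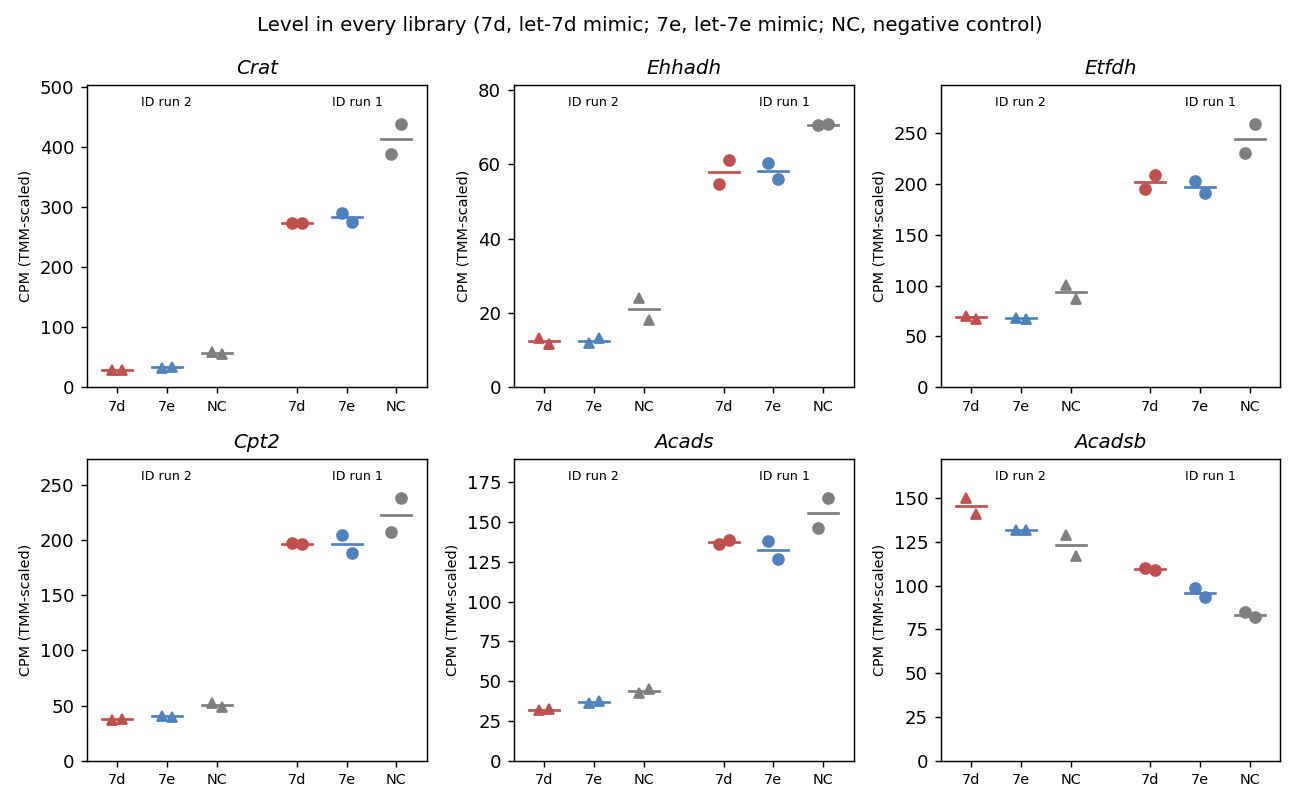
CPM of 6 members in every library, by ID run (run 2 left) and group (let-7d, let-7e, then control), with a line at the mean of each 2 libraries. Mimic points lie below the controls of their run for Crat, Ehhadh, Etfdh, Cpt2 and Acads, and above them for Acadsb. The Crat controls are at 55.4 and 58.2 CPM in ID run 2 and 389 and 438 CPM in ID run 1.

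Among the 8 acyl-CoA dehydrogenases, which open each round of the spiral, 1 rose and 1 fell with let-7d (median -0.074) and 1 fell with let-7e (median -0.079). Acads, the enzyme of short chains, had 31.7 and 32.4 CPM with let-7d, 36.4 and 37.3 CPM with let-7e, and 42.4 and 45.2 CPM in the controls of ID run 2. The ID run 1 levels of Acads were 136 and 139 CPM with let-7d, 138 and 127 CPM with let-7e, and 146 and 165 CPM in the controls. All mimic libraries were below the controls of their run. Acads fell by 0.30 ± 0.063 with let-7d (adjusted p = 0.00427) and by 0.24 ± 0.063 with let-7e (adjusted p = 0.0243, edgeR). Without control replicate 2 or 4, or let-7e replicate 1 or 2, the let-7e call was lost (-0.20 to -0.29 over the 12 fits). In ID run 1 alone Acads stood at -0.16 with let-7d and -0.22 with let-7e, neither called (adjusted p = 0.15 and 0.074). In ID run 2 alone the let-7e value was -0.25, also not called (adjusted p = 0.194, edgeR).

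Acadsb (chr7:131410601-131448944), which acts on short branched chains and serves isoleucine breakdown, went the other way. It had 150 and 141 CPM with let-7d, 132 CPM in each let-7e library, and 129 and 117 CPM in the controls of ID run 2. In ID run 1 the let-7d libraries had 110 and 109 CPM, the let-7e libraries 98.7 and 93.5 CPM, and the controls 84.7 and 82.0 CPM. Every mimic library was above the controls of its run, and the let-7d libraries above the let-7e libraries. Acadsb rose by 0.32 ± 0.050 with let-7d (24.4%, adjusted p = 0.000534), a call that all 12 fits without 1 library kept. In ID run 2 alone it stood at 0.26 with let-7d, not called (adjusted p = 0.0664, edgeR). With let-7e it stood at 0.15 ± 0.050 (adjusted p = 0.0705, edgeR). That value was called higher without control replicate 3 (0.20) and in ID run 1 alone (0.22, adjusted p = 0.0422). Of the 7-base seed matches printed above, 2 belong to this gene.

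Acadvl, Acadl, Acadm, Acad9, Acad10 and Acad11 were not called with either mimic over both ID runs. Acadvl, for very long chains, stood at -0.053 (95% interval -0.18 to 0.076) with let-7d and -0.046 (-0.18 to 0.084) with let-7e. Acadl, for long chains, stood at -0.095 (-0.25 to 0.060) and -0.10 (-0.26 to 0.051) with let-7d and let-7e. Acadm, for medium chains, was at -0.12 ± 0.068 with let-7d (adjusted p = 0.277) and at -0.18 ± 0.068 with let-7e (adjusted p = 0.107, edgeR), a value called without control replicate 1 (-0.23). Acad9, which also helps to assemble respiratory complex I, and Acad10 lay between -0.055 and 0.021 with either mimic. Acad11 was at -0.18 ± 0.076 with let-7d (adjusted p = 0.132) and -0.14 ± 0.076 with let-7e (adjusted p = 0.284). Within ID run 2 Acad11 was called lower with let-7d in the fit of all 12 libraries (-0.34, adjusted p = 0.0291), but not in the fit of ID run 2 alone. Of its exons, 642 bases are shared with other genes, among them Ackr4 (-0.57 with let-7d, adjusted p = 0.0164).

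In the rest of the mitochondrial spiral 3 of 9 genes fell with let-7d (median -0.14) and 4 of 9 with let-7e (median -0.15), and all 9 values were negative with each. Eci1, the isomerase that lets unsaturated chains enter the spiral, had 58.8 and 62.8 CPM with let-7d, 67.0 and 64.6 CPM with let-7e, and 77.7 and 67.5 CPM in the controls of ID run 2. For Eci1 in ID run 1 the levels were 193 and 206 CPM with let-7d, 194 and 181 CPM with let-7e, and 229 and 252 CPM in the controls. The mimic and control libraries of a run did not overlap. Eci1 fell by 0.26 ± 0.062 with let-7d (adjusted p = 0.00934) and by 0.25 ± 0.062 with let-7e (adjusted p = 0.0178, edgeR). The let-7e call was lost without control replicate 2 or let-7e replicate 1 or 2 (-0.20 to -0.30 over the 12 fits). In ID run 2 alone Eci1 was called with neither mimic, at -0.24 with let-7d (adjusted p = 0.124) and -0.14 with let-7e (adjusted p = 0.504).

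Acaa2, the thiolase that releases acetyl-CoA, had 84.6 and 83.4 CPM with let-7d, 75.4 and 87.6 CPM with let-7e, and 95.6 and 85.4 CPM in the controls of ID run 2. Acaa2 in ID run 1 had 261 and 263 CPM with let-7d, 252 and 251 CPM with let-7e, and 306 and 357 CPM in the controls. The gap to the controls was wide in ID run 1 and narrow in ID run 2, where 1 let-7e library lay between the controls. Acaa2 fell by 0.23 ± 0.068 with let-7d (adjusted p = 0.0331) and by 0.28 ± 0.068 with let-7e (adjusted p = 0.0175, edgeR). Within ID run 2 the changes were -0.11 with let-7d and -0.15 with let-7e, neither called, and within ID run 1 they were -0.34 and -0.39, both called. Without control replicate 2, the library with 357 CPM, the values were -0.15 with let-7d and -0.20 with let-7e, neither called. The let-7d call was also lost without let-7d replicate 1, 2 or 4 or control replicate 3 (-0.21 to -0.24), and the let-7e call without let-7e replicate 1, 2 or 3 (-0.25 to -0.26).

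Decr1, the dienoyl-CoA reductase that polyunsaturated chains need, had 113 and 104 CPM with let-7d, 127 and 109 CPM with let-7e, and 139 and 119 CPM in the controls of ID run 2. ID run 1 gave Decr1 at 272 and 275 CPM with let-7d, 283 and 261 CPM with let-7e, and 290 and 323 CPM in the controls. The let-7d libraries lay below the controls of both runs, and 1 let-7e library overlapped them in ID run 2. Decr1 fell by 0.20 ± 0.065 with let-7d (adjusted p = 0.0416) and stood at -0.15 ± 0.065 with let-7e (adjusted p = 0.166, edgeR). The let-7d call was lost without control replicate 2 or 3, any let-7d library or let-7e replicate 1 (-0.16 to -0.24 over the 12 fits). ID run 1 alone (-0.15) and ID run 2 alone (-0.23) did not make it either (edgeR adjusted p = 0.156 and 0.189).

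Hadha and Hadhb encode the subunits of the mitochondrial trifunctional protein, which runs the later reactions on long chains, and Hadh encodes the matching dehydrogenase of shorter chains. Hadhb had 71.0 and 64.2 CPM with let-7d, 66.4 and 61.8 CPM with let-7e, and 78.7 and 71.7 CPM in the controls of ID run 2. The ID run 1 levels of Hadhb were 190 and 213 CPM with let-7d, 211 and 191 CPM with let-7e, and 214 and 251 CPM in the controls. Mimic libraries lay below the controls in both runs, with the highest let-7d library just under the lowest control. Hadhb fell by 0.22 ± 0.063 with let-7e (adjusted p = 0.0396) and stood at -0.18 ± 0.063 with let-7d (adjusted p = 0.0651, edgeR). The let-7d value was called by DESeq2 and by edgeR with DESeq2 size factors (adjusted p = 0.0497) or blocked on replicate number (adjusted p = 0.0479). It was also called without control replicate 1 (-0.22) or let-7d replicate 3 (-0.21). The let-7e call was lost without control replicate 2 or 3 or let-7e replicate 2, 3 or 4 (-0.16 to -0.26 over the 12 fits). It was also lost in ID run 1 alone (-0.20) and ID run 2 alone (-0.23).

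Hadh had 78.3 and 78.0 CPM with let-7d, 79.1 and 76.2 CPM with let-7e, and 90.2 and 79.4 CPM in the controls of ID run 2. For Hadh in ID run 1 the levels were 361 and 370 CPM with let-7d, 353 and 331 CPM with let-7e, and 377 and 442 CPM in the controls. The groups did not overlap within a run, though the lowest control of ID run 2 came close to the mimic libraries. Hadh fell by 0.19 ± 0.059 with let-7e (adjusted p = 0.0470) and stood at -0.14 ± 0.059 with let-7d (adjusted p = 0.116, edgeR). The let-7e call held without control replicate 1, control replicate 4 or let-7d replicate 3 and was lost without any other library (-0.13 to -0.24 over the 12 fits). It was also lost on blocking by replicate number (edgeR adjusted p = 0.0511). Further, it was lost in ID run 1 alone (-0.25, adjusted p = 0.0595) and ID run 2 alone (-0.13, adjusted p = 0.527). Hadha, which holds a 7-base seed match, stood at -0.11 ± 0.056 with let-7d (adjusted p = 0.196) and at -0.054 ± 0.056 with let-7e (adjusted p = 0.626). The hydratase gene Echs1, the dehydrogenase gene Hsd17b10, whose protein also serves in mitochondrial RNA processing, and the thioesterase gene Acot2 lay between -0.12 and -0.026 with either mimic and were not called, except that Hsd17b10 was called with let-7e without control replicate 4 (-0.18).

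Of the 3 genes of electron transfer, 2 fell with let-7d (median -0.18) and 1 with let-7e (median -0.11). Etfdh (chr3:79603788-79629500), the oxidoreductase that hands the dehydrogenases' electrons to ubiquinone, had 70.3 and 67.4 CPM with let-7d, 68.1 and 67.6 CPM with let-7e, and 101 and 87.3 CPM in the controls of ID run 2. Etfdh in ID run 1 had 195 and 209 CPM with let-7d, 203 and 191 CPM with let-7e, and 231 and 259 CPM in the controls. All mimic libraries stood clear of the controls of their run. Etfdh fell by 22.1% with let-7d (-0.36 ± 0.060, adjusted p = 0.000767) and by 23.7% with let-7e (-0.39 ± 0.060, adjusted p = 0.000686, edgeR). It was called within each run with each mimic, at -0.45 and -0.47 in ID run 2 and -0.27 and -0.31 in ID run 1 with let-7d and let-7e, and in all 12 fits without 1 library. Its annotated 3′ UTR, 214 bases long, held no seed match. Of its exons, 278 bases are shared with 4930579G24Rik, which stood at 0.14 ± 0.11 with let-7d and 0.23 ± 0.11 with let-7e.

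Etfb, the smaller subunit of the electron transfer flavoprotein, had 32.0 and 30.3 CPM with let-7d, 35.2 and 33.9 CPM with let-7e, and 38.9 and 34.4 CPM in the controls of ID run 2. ID run 1 gave Etfb at 56.8 and 54.7 CPM with let-7d, 54.2 and 57.4 CPM with let-7e, and 59.4 and 62.8 CPM in the controls. The let-7d libraries lay below the controls in both runs, and 1 let-7e library lay between the controls of ID run 2. Etfb fell by 0.18 ± 0.055 with let-7d (adjusted p = 0.0339) and stood at -0.11 ± 0.054 with let-7e (adjusted p = 0.255, edgeR). The let-7d call was lost without control replicate 2 or 3 or let-7d replicate 2, 3 or 4 (-0.14 to -0.21 over the 12 fits), and 678 bases of its exons are shared with other annotated genes. ID run 1 alone (-0.12) and ID run 2 alone (-0.21) did not call Etfb with let-7d (edgeR adjusted p = 0.247 and 0.193). Etfa, the larger subunit, stood at -0.032 with let-7d (95% interval -0.16 to 0.094) and -0.059 with let-7e (-0.18 to 0.066).

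Of the 8 genes of the peroxisomal steps, 1 rose and 1 fell with let-7d (median -0.023) and 1 fell with let-7e (median -0.025). Eci2 and Ech1, counted here, and Acad11, counted with the dehydrogenases, are also reported in the other organelle, so the medians depend on where they are placed. Ehhadh (chr16:21761287-21787807), whose enzyme carries out the hydration and dehydrogenation of straight and dicarboxylic chains, had 13.3 and 11.5 CPM with let-7d, 11.8 and 13.1 CPM with let-7e, and 23.9 and 18.2 CPM in the controls of ID run 2. The ID run 1 levels of Ehhadh were 54.7 and 61.3 CPM with let-7d, 60.4 and 56.1 CPM with let-7e, and 70.5 and 70.8 CPM in the controls. Mimic and control libraries of a run did not overlap. Ehhadh fell by 0.50 ± 0.10 with let-7d (29.1%, adjusted p = 0.00413) and by 0.49 ± 0.10 with let-7e (29.0%, adjusted p = 0.00649, edgeR), and all 12 fits without 1 library kept both calls. Within ID run 2 it was at -0.76 with each mimic and called, and within ID run 1 at -0.28 with each and not called (adjusted p = 0.104 with let-7d and 0.127 with let-7e). In the fit of ID run 1 alone both were called, at -0.27 with let-7d (adjusted p = 0.0277) and -0.27 with let-7e (adjusted p = 0.0364). Set against each other, the runs gave changes that differed by -0.48 with let-7d (adjusted p = 0.193) and -0.49 with let-7e (adjusted p = 0.380), ID run 2 minus ID run 1.

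Pecr, a peroxisomal enoyl-CoA reductase, which saturates chains and does not shorten them, had 13.1 and 11.5 CPM with let-7d, 11.8 and 11.3 CPM with let-7e, and 10.2 and 9.94 CPM in the controls of ID run 2. For Pecr in ID run 1 the levels were 8.49 and 8.44 CPM with let-7d, 8.73 and 8.76 CPM with let-7e, and 7.78 and 6.82 CPM in the controls. Mimic libraries were above the controls in both runs. Pecr rose by 0.25 ± 0.081 with let-7d (adjusted p = 0.0456) and stood at 0.22 ± 0.080 with let-7e (adjusted p = 0.0972, edgeR). The let-7d call was not made by DESeq2 or limma-voom, and of the 12 fits without 1 library only that without control replicate 1 kept it (0.19 to 0.28). Nor was it made in ID run 1 alone or ID run 2 alone (edgeR adjusted p = 0.321 and 0.161). The other 6 peroxisomal genes were not called with either mimic over both ID runs, but Ech1 was called with let-7e in ID run 1 alone (-0.24) and without control replicate 4 (-0.22). Acox3, the oxidase of branched chains, stood at 0.0043 and -0.017, Decr2 at 0.059 and -0.0045, Eci2 at -0.027 and -0.11, and Ech1 at -0.044 and -0.16 with let-7d and let-7e. Hsd17b4, the counterpart of Ehhadh for branched and very long chains, stood at -0.11 (95% interval -0.23 to 0.012) with let-7d and -0.034 (-0.15 to 0.086) with let-7e. Acaa1a, the peroxisomal thiolase, stood at -0.018 and 0.022 with let-7d and let-7e, and its near-identical copy Acaa1b makes both counts uncertain.

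The mimics were also set against each other. None of the 34 genes was called between let-7d and let-7e (0 of 34, where 0.0571% of all genes were higher and 0.0952% lower with let-7d), by edgeR, DESeq2 or limma-voom, and 1 had an unadjusted p under 0.05. That gene was Acadsb, 0.16 higher with let-7d (95% interval 0.059 to 0.27, adjusted p = 0.279). The differences ran from -0.19 for Cpt1b to 0.16. For Crat the difference was -0.11 (95% interval -0.26 to 0.037), for Ehhadh -0.0024 (-0.22 to 0.22) and for Etfdh 0.030 (-0.097 to 0.16).

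Among genes with an 8-base seed match 24.4% fell with let-7d and 15.7% with let-7e, against 8.65% and 4.78% of genes with no match. Ehhadh, 1 of 2 members in that class, had values far below the medians of that class (-0.088 with let-7d and -0.059 with let-7e). With 7-base matches alone 21.4% fell with let-7d and 12.8% with let-7e. Of the 3 members of that class, Decr1 fell with let-7d, Hadha passed no test and Acadsb rose with let-7d.

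**Figure D3:**
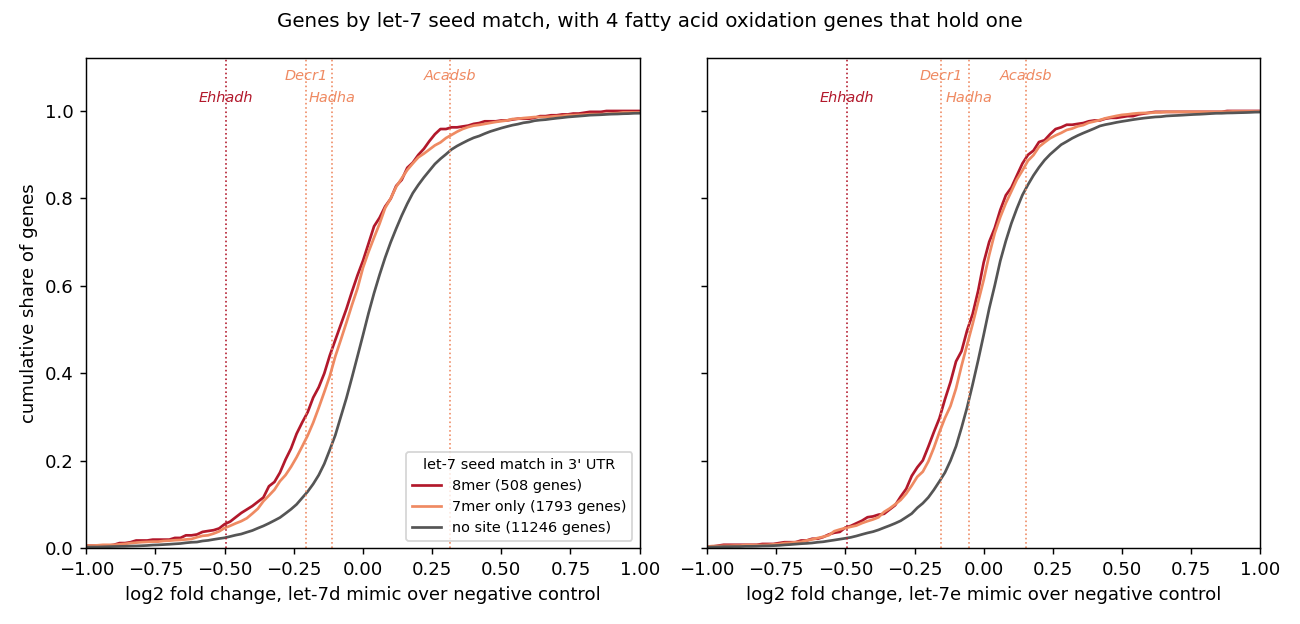
Cumulative share of genes (y) by log2 fold change over control (x), with let-7d on the left and let-7e on the right, for 508 genes with an 8-base match, 1793 with 7-base matches alone and 11246 with none. Dotted lines mark Ehhadh, Decr1, Hadha and Acadsb, 4 fatty acid oxidation genes that hold a match. Ehhadh lies in the lowest part of its class, Acadsb in the upper part.

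ID run 2 differed from ID run 1 far more than any mimic did from control. Of the 34 genes, 31 were lower and 3 higher in ID run 2 (edgeR), where 40.0% of all genes were lower and 41.7% higher. The median was -1.56 over the 34, against 0.028 over all genes, and the same counts of 31 and 3 came from the control libraries alone. The summed level of the 34 was 2380 to 2760 CPM in ID run 2 and 6260 to 7640 CPM in ID run 1. Adipocyte identity markers were lower as well, 10 of 10, with a median of -1.97. Preadipocyte markers were higher for 5 and lower for 3 of 8 (median 1.08), and smooth muscle markers higher for 5 and lower for 1 of 6 (median 0.90). Macrophage markers, lower for 11 of 12, summed to 28.6 to 168 CPM in ID run 2 and 268 to 401 CPM in ID run 1. The part of these cell types in the difference was not tested, and what separates the runs is not given in the sources used here.

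By step, the medians of ID run 2 over ID run 1 were -2.11 for carnitine entry, -1.92 for the dehydrogenases, -1.62 for the rest of the spiral, -1.03 for electron transfer and -1.08 for the peroxisomal steps. Genes within a step differed widely. Cpt1b was at -4.92 ± 0.18 and Crat at -3.07 ± 0.061, while Cpt1a was at -0.43 ± 0.050. Cpt2 (-2.27), Hadh (-2.21) and Ehhadh (-2.06) followed Crat, and Acadvl, Acadl, Acadm and Acads, the dehydrogenases of straight chains from very long to short, lay together between -2.01 and -1.92. Acad9 (-0.36), Acot2 (-0.42), Decr2 (-0.24) and Eci2 (-0.21) were the least lowered besides Cpt1a. The 3 genes that were higher in ID run 2 were Hsd17b10 (0.51 ± 0.049), Acadsb (0.48 ± 0.041) and Pecr (0.46 ± 0.065). Of these, Acadsb and Pecr are also the members that rose with let-7d.

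**Figure D4:**
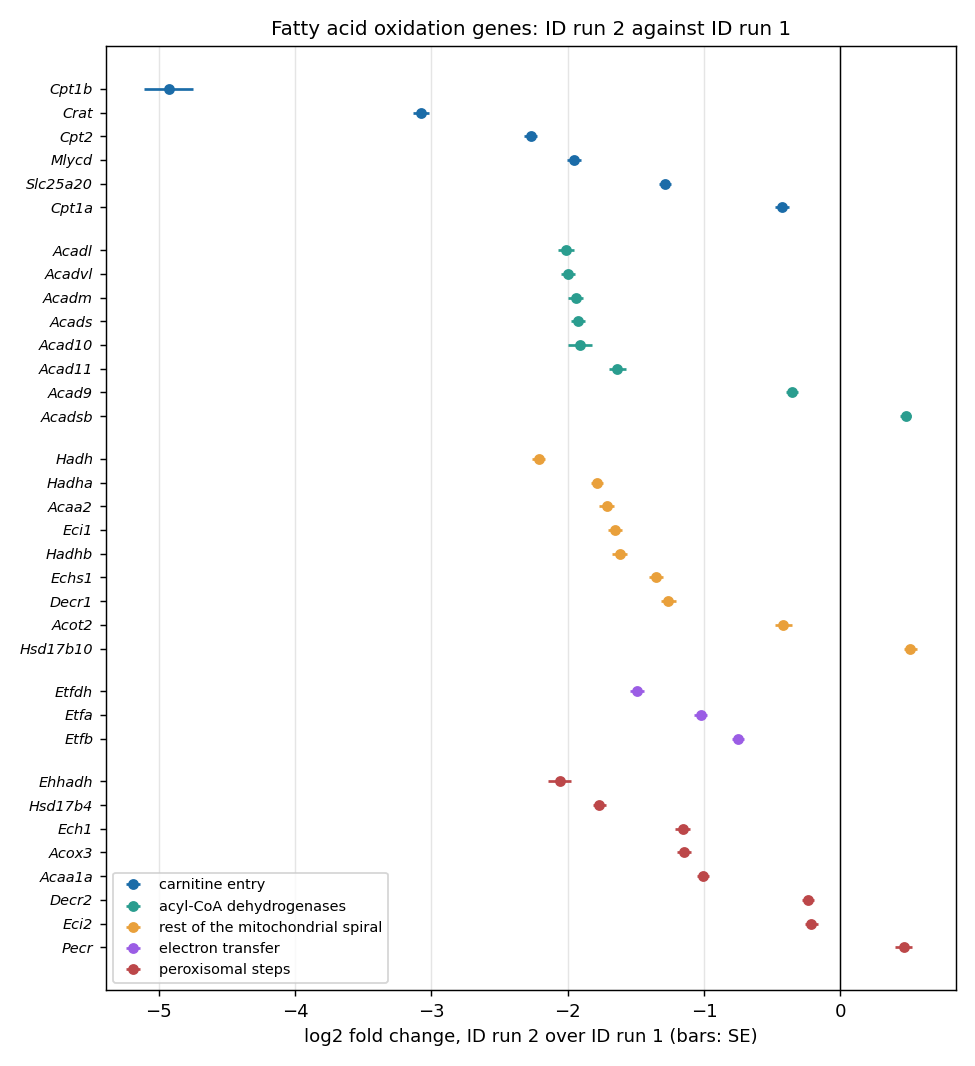
Log2 fold change of ID run 2 over ID run 1 for the 34 genes, grouped by step (colours), with bars of 1 SE. Of the points, 31 lie left of 0, from Cpt1b at -4.92 to Eci2 at -0.21, and Acadsb, Hsd17b10 and Pecr lie right of it.

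Levels per kb of exon, taken over all annotated exons of a gene, rank the RNA of the members in the control cells. This ranking depends on the annotated length. Hadha, with 8.73 kb of exon, had the highest control CPM of the members, 236 in ID run 2 and 813 in ID run 1. Per kb it ranked 11 and 9. In ID run 2 Etfa led the controls with 98.5 CPM per kb, then Hsd17b10 with 66.3, Acadl with 59.8 and Acaa2 with 59.7 CPM per kb. In ID run 1 Acaa2 (218 CPM per kb), Acadl (213) and Etfa (200) led, and Hsd17b10 was the gene of rank 16 with 48.5 CPM per kb. The lowest were Cpt1b (0.129 CPM per kb) and Acad10 (0.596) in ID run 2, and Acad10 (2.73) and Cpt1b (3.01) in ID run 1. Cpt1a exceeded Cpt1b in each run, with 14.0 against 0.129 CPM per kb in ID run 2 and 17.6 against 3.01 CPM per kb in ID run 1. Of the 3.372 kb of Cpt1b exon, 2744 bases are shared with Gm44502, so its level per kb and rank are uncertain. Ehhadh, at 7.06 CPM per kb in ID run 2 and 23.7 in ID run 1, was below its counterpart Hsd17b4, at 40.2 and 132 CPM per kb.

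The mimic changes were compared between the runs with an interaction term. None of the 34 genes was called, with let-7d (0 of 34, where 0.0635% of all genes were higher and 0.178% lower) or with let-7e (0 of 34, where 0.0% were higher and 0.00635% lower), by edgeR, DESeq2 or limma-voom. Unadjusted p was under 0.05 for 7 genes with let-7d and 3 with let-7e. Ehhadh, given above, and Crat had the smallest, and for Crat the change in ID run 2 minus that in ID run 1 was -0.40 with let-7d (adjusted p = 0.0975) and -0.24 with let-7e (adjusted p = 0.506). Within ID run 2, 7 members fell and 1 rose with let-7d (5.26% and 3.29% of all genes), and 4 fell and 0 rose with let-7e (1.56% and 0.914%). Within ID run 1, 5 fell and 1 rose with let-7d (6.28% and 4.59% of all genes), and 4 fell and 0 rose with let-7e (4.02% and 3.1%), by edgeR.

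Neighbouring pathways were counted list by list. Beside these lists and the marker lists below stand the shares over all genes. With let-7d 6.41% of all genes rose and 9.81% fell, and with let-7e 3.81% rose and 5.69% fell. A count of 1 or 2 in a list of this size is near these shares. Of 11 genes that activate fatty acids or take up carnitine, 1 rose and 1 fell with let-7d, and 1 rose with let-7e. Acsl4, the ligase that prefers arachidonate, rose with each (0.23 ± 0.052 and 0.33 ± 0.052 with let-7d and let-7e), and the fatty acid carrier gene Slc27a4 fell with let-7d (-0.17 ± 0.052). Of 15 further peroxisomal genes measured, 2 rose and 4 fell with let-7d and 1 rose with let-7e. Nudt19, a CoA diphosphatase, rose with each (0.39 ± 0.062 and 0.38 ± 0.061 with let-7d and let-7e), while Acaa1b (-0.50 ± 0.11) and the very-long-chain importer Abcd2 (-0.37 ± 0.10) fell with let-7d. Of 15 peroxisome biogenesis genes only Pex16 was called, and only with let-7d (-0.35 ± 0.081). Of 9 regulators only Rxra, the partner of the PPAR receptors, was called, higher with let-7d (0.19 ± 0.047).

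Of 10 genes of propionyl-CoA and branched-chain acyl-CoA use, Mcee rose with let-7d (0.25 ± 0.080) and none was called with let-7e, where 2 had an unadjusted p under 0.05. In fatty acid synthesis, the opposite pathway, 3 of 7 genes fell with let-7d, led by Fasn (-0.49 ± 0.094), Me1 (-0.33 ± 0.066) and Acly (-0.29 ± 0.060). With let-7e only Fasn fell (-0.32 ± 0.094).

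Some brown and beige adipocyte markers fell as well. With let-7d 5 of 8 fell (median -0.58), and with let-7e 3 of 8 (median -0.44), Cox8b first in each (-0.93 ± 0.15 and -0.99 ± 0.14). Their summed level was 11.2 to 13.5 CPM with let-7d, 12.6 to 16.6 CPM with let-7e, and 23.4 to 24.0 CPM in the controls of ID run 2. The sum in ID run 1 was 195 to 207 CPM with let-7d, 218 to 219 CPM with let-7e, and 275 to 315 CPM in the controls. Cidea, one of their defining genes, was at 0 in at least 1 library. Dio2 went the other way with let-7d, at 1.7 and 1.56 CPM against 1.24 and 1.55 CPM in the controls of ID run 2. In ID run 1 it had 1.46 and 1.68 CPM with let-7d against 0.991 and 0.904 CPM. Ppargc1a was level in ID run 1, at 16.0 and 18.1 CPM with let-7d against 16.0 and 18.2 CPM. Cox8b was low in ID run 2, at 1.17 and 0.963 CPM with let-7d. Macrophage markers rose for 2 of 12 with let-7d and for 0 with let-7e. They summed to 168 and 70.2 CPM with let-7d, 54.9 and 84.8 CPM with let-7e, and 43.3 and 28.6 CPM in the controls of ID run 2, and to 352 to 374 CPM, 268 to 401 CPM and 355 to 363 CPM with let-7d, with let-7e and in the controls of ID run 1. The let-7d library of 168 CPM, replicate 3, also had the highest endothelial sum of ID run 2, 249 CPM, against 157 to 180 CPM in the others, and without it 9 members fell and 1 rose with let-7d. Smooth muscle markers fell for 3 and 2 of 6 with let-7d and let-7e. Preadipocyte markers rose for 3 and fell for 1 of 8 with each mimic. Of 5 endothelial and 5 mesothelial markers 0 were called by edgeR, and 2 endothelial markers had an unadjusted p under 0.05 with let-7d. The part of these cell types in the fall of the oxidation genes was not tested.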

How the data were processed

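The counts are the authors' deposited whole-number read counts per Ensembl gene, not normalized. The submitters' processing notes name STAR and the build GRCm38.p6. The counter and its strand setting are not stated there or in the labels, so reads of overlapping, antisense or near-identical genes cannot be told apart. The table holds no gene whose highest CPM is under 0.456, and a second deposited table was not used. Of the 15754 identifiers, 15742 matched symbols of GENCODE vM21.

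Counts were TMM-scaled and fitted with edgeR 4.0.16 (R 4.3.3) on all 12 libraries with terms for group and ID run (8 residual degrees of freedom), or with every group and run apart (6) for within-run changes and interactions. All genes were tested, since edgeR's filter on low counts removed none. Intervals are 95%. DESeq2 1.42.0, limma 3.58.1 and the settings in the closing section were alternatives. The pipeline was tested on simulated counts with known changes. Those changes were larger than most of the called member changes, so the test does not show how often changes of that size are found.

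Members, steps, lists and tests were chosen with earlier results of these data known. Per-library values are given for members called with a mimic and for Cpt1a and Cpt1b, and for other pathways at most the 3 genes with the smallest p in a comparison are named. The design text gives more replicates per group than the 4 libraries listed. Libraries that share group and ID run differed by more than counting noise (chi-square per degree of freedom 2.31 to 9.92). Some results that were computed are not reported here.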

Additional observations from a re-analysis of the deposited data

How the results depend on the processing

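With let-7d the 13 called members became 8 when the fit held only the let-7d and control libraries, 0 without a term for the ID run, 7 in ID run 1 alone and 5 in ID run 2 alone. With let-7e the 10 called members became 0 without a term for the ID run and 3 in ID run 2 alone. Leaving out 1 library gave 8 to 13 members with let-7d and 3 to 12 with let-7e. Calls kept in all 12 such fits were 8 of 13 with let-7d (Cpt2, Slc25a20, Crat, Acads, Acadsb, Eci1, Etfdh and Ehhadh) and 3 of 10 with let-7e (Crat, Etfdh and Ehhadh). DESeq2 size factors in edgeR, the DESeq2 Wald test, limma-voom, no filter on low counts and a minimum of 1 CPM in 4 libraries gave 12 or 13 members with let-7d and 10 or 11 with let-7e. The 31 lower and 3 higher members of ID run 2 were counted under every alternative tried for that comparison, as were 0 members between the mimics and 0 in each interaction. Cpt1a with let-7e, at 0.050 and not called, was at -0.0494 in ID run 2 alone. Samples that share a replicate number are not tied to one animal or culture by the labels, and once group and ID run means are taken out their deviations correlate at -0.065 to 0.19. With the replicate block in place of the ID run term, 13 members were called with let-7d (Hadhb gained, Mlycd lost) and 9 with let-7e (Hadh lost). Low counts limit Cpt1b in ID run 2 (as few as 4 counts).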
